A study of Mus musculus with 14 samples.

Results

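The bile acid and organic anion transporters described here are 9 genes whose products carry bile acids, phospholipid and other organic anions across the hepatocyte membrane: Slc10a1, Slco1a1, Slco1a4, Slco1b2, Slco2b1, Abcb11, Abcb4, Abcc2 and Abcc3. They were chosen by name, and every probe set that the array's annotation lists with exactly 1 of these symbols was taken. This gave 17 probe sets among 45037 that were not controls, and 9 of the 18193 genes on the array. Liver RNA was measured on Affymetrix mouse arrays, 7 from mice on a control diet and 7 from mice on the same kind of diet with a krill powder extract, with 1 mouse per array. All animals were male CBA/J mice, an inbred strain, bought at 6 weeks of age, housed singly and given 84 kcal per week of an AIN93M-type purified diet. Control mice stayed on the control diet, and krill mice changed to the krill diet at 2 months of age; all livers were taken at 5 months, after 3 months of feeding. Total protein and total lipid were the same in both diets, while amino acids and fatty acids differed. The number of arrays limits the precision of every value below.

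Hepatocytes take up bile acids from portal blood across the sinusoidal membrane and secrete them, with phospholipid and cholesterol, across the canalicular membrane into bile. Uptake runs through the sodium-dependent carrier NTCP, encoded by Slc10a1, and through sodium-independent organic anion polypeptides of the Slco families, which also take up steroid conjugates, thyroid hormones and many drugs. Canalicular export is driven by ATP-binding cassette pumps, and a further pump of this class, MRP3, returns conjugates to the blood. Transcription of many of these genes is controlled by nuclear receptors that sense bile acids, fatty acids and xenobiotics.

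The arrays differed between the diets in measures that do not depend on the transporters. Krill replicates 2, 4, 5 and 7 had a mean log2 level of the hybridisation spike-ins of 14.13 to 14.35, above the control arrays at 12.60 to 13.23, while the other 3 krill arrays lay at 12.93 to 13.18. The ratio of 3' to 5' signal of the pyruvate carboxylase control probe sets was 4.49 to 10.7 in control and 11.6 to 25.7 in krill arrays, and that of actin was 1.78 to 2.44 and 2.48 to 3.79. The median signal of 80 olfactory receptor probe sets, a gene family not used by hepatocytes, was 20.1 to 37.1 in control arrays, 131 to 180 in the 4 krill arrays with high spike-ins and 29.9 to 70.2 in the other 3. The change of every transporter is therefore given with all arrays and without those 4 krill arrays; how much of a difference the array quality accounts for was not tested.

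Of the 9 transporter genes, 5 were lower and 1 was higher on the krill diet, and 3 did not pass the test (limma with Benjamini-Hochberg adjustment over 11308 genes, threshold 0.05). All 4 export pumps, Abcb11, Abcb4, Abcc2 and Abcc3, were among the lower genes, together with the uptake carrier Slco2b1. Slco1a1 was the higher one, though not when arrays were scaled on their spike-ins. The uptake carriers Slc10a1, Slco1a4 and Slco1b2 did not pass by their brightest probe set over all arrays. This depends on that choice. With probe sets averaged within each gene, Slc10a1 (-0.49, limma, adjusted p = 0.0133) and Slco1b2 (-0.69, limma, adjusted p = 0.0111) were also called lower. Averaging gave 7 transporters lower and 0 higher, against 26% and 21.9% of all genes. With the brightest probe sets the background was high too, since 24.8% of all tested genes were called lower and 22.9% higher. The median change of the 9 genes was -0.96 on the log2(signal + 16) scale, against 0.04 for all tested genes; without krill replicates 2, 4, 5 and 7 it was -0.49, and with the spike-in level as a covariate -0.39. Without krill replicates 2, 4, 5 and 7, the pumps Abcb4 and Abcc2 and the carrier Slco2b1 were still called lower and Slco1a1 higher, against 19.6% of all genes called lower and 12.7% higher. The split over all genes depends on how the arrays are scaled: centring each array on its median gave 33% lower and 8.9% higher, and scaling on the spike-ins 49% lower and 2.6% higher. In bulk tissue, fewer cells of a type and less RNA per cell cannot be told apart.

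**Figure D1:**
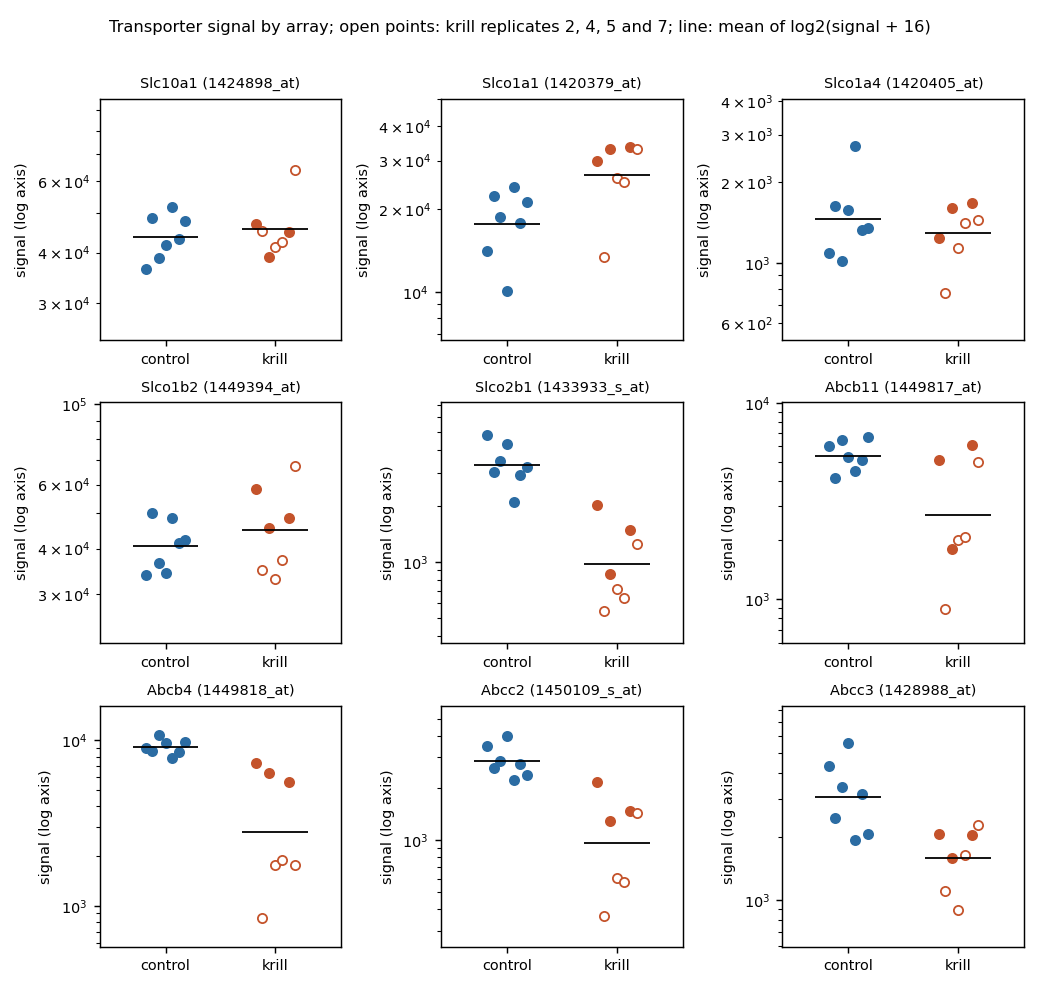
Signal of the probe set that stands for each of the 9 transporter genes, on a log axis, with 1 point per array, 7 per diet; open points are krill replicates 2, 4, 5 and 7 and the line is the mean of log2(signal + 16). For Abcb4, Abcc2 and Slco2b1 all krill points lie below all control points, and for the other 6 genes the diets overlap.

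Promoter sequence is shown for 4 transporters because genes of this group are textbook targets of nuclear receptors, many of which bind the half-site AGGTCA. Each of the 4 holds that half-site. Abcb4, Slco1a4 and Slco2b1, where it was not found in the 250 bases before the start, are not shown. The 150 bases before the gene start, 5′ to 3′ on the gene's strand, are from RefSeq on build GRCm38.p6, and capitals mark AGGTCA or its complement TGACCT. Abcb11 is shown from chr2:69342617-69342766 (minus strand), Abcc2 from chr19:43782158-43782307 (plus strand), Slco1a1 from chr6:141946963-141947112 (minus strand) and Slco1b2 from chr6:141629368-141629517 (plus strand).
Abcb11: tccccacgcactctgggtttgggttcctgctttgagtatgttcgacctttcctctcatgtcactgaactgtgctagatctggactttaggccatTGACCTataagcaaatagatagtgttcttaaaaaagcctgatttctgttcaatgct
Abcc2: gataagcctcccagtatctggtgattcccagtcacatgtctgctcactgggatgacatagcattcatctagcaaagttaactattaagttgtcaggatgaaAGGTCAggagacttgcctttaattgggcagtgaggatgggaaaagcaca
Slco1a1: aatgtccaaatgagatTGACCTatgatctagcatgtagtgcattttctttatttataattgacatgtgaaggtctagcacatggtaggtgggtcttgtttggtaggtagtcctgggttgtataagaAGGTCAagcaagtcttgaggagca
Slco1b2: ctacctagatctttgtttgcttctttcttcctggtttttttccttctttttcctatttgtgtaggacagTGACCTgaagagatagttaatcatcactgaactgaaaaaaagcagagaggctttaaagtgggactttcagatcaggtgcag
The table held windows for 8 of the 9 genes, 11 windows in all, and the 250 bases before each start were searched on both strands. AGGTCA was found in 5 of the 11 windows, before 5 of the 8 genes, and 14.02% of all 32851 windows hold it. Its positions were -56 in Abcb11, -49 in Abcc2, -81 in Slco1b2, -134 and -24 in Slco1a1, and -87 in the second of the Slc10a1 windows. The related half-site AGTTCA was found in 4 of the 11 windows, before 4 genes (11.8% of all windows). Of the other motifs searched, TATAAA was found in 3 of the 11 windows (12.4% of all), CCAAT in 4 (33.9%) and TGGCAA in 1 (12.0%), each before as many genes. TGACTCA (4.46%), GCCAAT (13.5%) and the inverted repeat of GGTCA with 1 base between its arms (0.03%) were found before none. GCCAAT contains CCAAT, so these overlap. AGGTCA stood before genes that were lower, higher or not past the test, and a match is only a match of letters.

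The phospholipid pump Abcb4, which moves phosphatidylcholine into bile and so shields the bile duct lining from bile salts, was lower on the krill diet. Its signal in the control arrays was 7805 at the lowest, 9016 at the median and 10803 at the highest. In the krill arrays it was 849 at the lowest, 1904 at the median and 7326 at the highest, so the groups did not overlap. The krill arrays fell into separate levels: replicates 2, 4, 5 and 7 lay between 849 and 1904, and replicates 1, 6 and 3 at 7326, 5577 and 6367. The change was -1.70 ± 0.375 (SE, n = 7 per diet) on the log2 scale, a 3.26-fold lower signal (limma, adjusted p = 0.00139). Without the 4 krill arrays of high spike-in level the change was -0.52 ± 0.136 (SE, n = 7 and 3), a 1.43-fold lower signal (adjusted p = 0.00995). With the spike-in level as a covariate it was -0.42 and not called (adjusted p = 0.278). The spread of Abcb4 was 10.8% of its mean in control and 72.9% in krill arrays.

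The conjugate pump Abcc2, known as MRP2, exports bilirubin glucuronides and glutathione conjugates into bile. Its signal ran from 2215 over a median of 2754 to 3969 in the control arrays. In the krill arrays it ran from 364 over 1288 to 2176, just below the lowest control array. Replicates 2, 4 and 5 were the lowest, while replicate 7, which shares their high spike-in level, lay at 1428, among the remaining krill arrays. The change was -1.55 ± 0.312 (SE), 2.92-fold lower (adjusted p = 0.000706), and without the 4 krill arrays -0.82 ± 0.199, 1.77-fold lower (adjusted p = 0.00664). Its probe set, 1450109_s_at, is of a kind that can match more than 1 transcript.

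The bile salt export pump Abcb11, which carries monovalent bile salts into the canaliculus and is the main driver of bile flow, had a signal of 4125 at the lowest, 5274 at the median and 6705 at the highest in control arrays. In krill arrays the values were 896, 2084 and 6128, and the groups overlapped. Its low and high krill arrays differed from those of Abcb4: replicate 3, with a low spike-in level, was at 1802, and replicate 7, with a high one, at 4987. Replicates 1 and 6 were at 5092 and 6128, within the control range. The change of -0.99 ± 0.334 (SE), 1.99-fold lower, passed the test (adjusted p = 0.0211). Without the 4 krill arrays it was -0.49 ± 0.289 and did not pass (adjusted p = 0.212).

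The basolateral pump Abcc3, or MRP3, exports glucuronides and bile acids back to the blood and is known to rise when bile flow is blocked. Its control arrays held 1923 at the lowest, 3194 at the median and 5580 at the highest, and its krill arrays 897, 1632 and 2264. The lowest control arrays lay within the krill range, so the groups overlapped. The change was -0.96 ± 0.253 (SE), 1.94-fold lower (adjusted p = 0.00522). Without the 4 krill arrays the change was -0.71 ± 0.279 and did not pass after adjustment (adjusted p = 0.0660).

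Among the uptake carriers Slco2b1, a broad carrier of steroid sulphates and drugs, was lower in krill livers. Probe set 1433933_s_at gave 2107, 3251 and 4797 as the lowest, median and highest control signal and 548, 861 and 2015 in the krill arrays, with no overlap. The change was -1.75 ± 0.263 (SE), 3.37-fold lower (adjusted p = 6.75e-05). It was -1.26 ± 0.258, 2.40-fold lower, without the 4 krill arrays (adjusted p = 0.00260) and -1.21 with the spike-in level as a covariate (adjusted p = 0.0119). By this probe set Slco2b1 was thus the 1 member called lower both with that covariate and without those arrays. Like that of Abcc2, the probe set is of a kind that can match more than 1 transcript. A second Slco2b1 probe set, 1454777_at, ran from 785 to 2263 in control and from 151 to 1027 in krill arrays and changed by -1.41 ± 0.314 (adjusted p = 0.00219 over all 45037 probe sets). It was at -1.06 without the 4 krill arrays (limma, adjusted p = 0.00806). With the spike-in level as a covariate it was at -1.02 and not called (limma, adjusted p = 0.154). The third, 1458171_at, was dim at 14.2 to 137 over all arrays and did not pass the signal filter.

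Slco1a1, a carrier of bile acids and sulphated steroids that in mice is expressed more in males, was the 1 transporter called higher. Its signal was 10030 at the lowest, 18700 at the median and 23959 at the highest in control arrays and 13387, 29771 and 33467 in krill arrays. Krill replicate 2 lay within the control range, and the other 6 krill arrays, at 25151 and above, lay over every control array. The change was 0.59 ± 0.224 (SE), 1.51-fold higher (adjusted p = 0.0356). It was 0.86 ± 0.221, 1.82-fold higher, without the 4 krill arrays (adjusted p = 0.00905). The call with all arrays was not firm: it ended when any of 8 of the 14 single arrays was left out (adjusted p from 0.0505 to 0.0869), and scaling on the spike-ins turned the change to -0.19, where the median of all genes was -0.75. Quantile normalization (0.31, limma, adjusted p = 0.244) and centring on array medians (0.19, limma, adjusted p = 0.646) ended the call as well. In the second Slco1a1 probe set, 1449844_at, the change was 0.48 ± 0.299 and did not pass with all arrays (adjusted p = 0.227); without the 4 krill arrays it was 1.19 ± 0.242, 2.28-fold higher (adjusted p = 0.00352).

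Slco1a4, which in the mouse carries bile acids and cardiac glycosides and is a known target of the xenobiotic receptor PXR, did not pass the test. It ran from 1015 over 1354 to 2712 in control and from 777 over 1405 to 1676 in krill arrays. The change was -0.17 ± 0.215 (SE, 95% interval -0.62 to 0.28, adjusted p = 0.523). The changes of the pumps Abcb4 (-1.70) and Abcc2 (-1.55) in the same fit with all arrays lie outside that interval. With the spike-in level as a covariate the Slco1a4 interval was -0.68 to 0.51. It holds the Abcb4 change of that fit, -0.42, but not that of Abcc2, -0.82, whose own interval of -1.54 to -0.11 overlaps it. With the mean log2 3'/5' ratio of actin and pyruvate carboxylase as a covariate, the Slco1a4 interval was -1.28 to 0.69. It holds the changes of both pumps in that fit, -0.29 and -0.98. Whether Slco1a4 and the pumps changed unequally was not tested. Scaling on the spike-ins gave -0.96 for Slco1a4 (limma, adjusted p = 0.0270), near the -0.75 of all genes. Without the 4 krill arrays the change of Slco1a4 was 0.03 ± 0.244 (limma, adjusted p = 0.930).

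Slc10a1, the main sodium-dependent bile acid carrier of hepatocytes, gave different answers in its 2 probe sets. The brighter, 1424898_at, ran from 36463 over 43153 to 51998 in control arrays and from 39053 over 44882 to 64026 in krill arrays. Its change was 0.06 ± 0.145 (SE, 95% interval -0.24 to 0.37, limma, adjusted p = 0.732). Without the 4 krill arrays it was -0.01 ± 0.136 (limma, adjusted p = 0.971). Quantile normalization turned the change with all arrays to -0.55 (limma, adjusted p = 0.00342) and spike-in scaling to -0.72 (limma, adjusted p = 0.0132). Probe set 1450261_a_at ran from 23573 to 31733 in control and from 6480 to 23401 in krill arrays, without overlap, a change of -1.04 ± 0.249 (adjusted p = 0.00390 over all probe sets). The lowest 4 of its krill values, 6480 to 15561, were those of the arrays with high spike-ins, and without them the change was -0.41 ± 0.159 (adjusted p = 0.105).

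Slco1b2, the liver-specific carrier of bile acids and unconjugated bilirubin in the mouse, had 5 probe sets that disagreed further. The brightest by the filter's measure, 1449394_at, ran from 33867 over 41346 to 50178 in control and from 32922 over 45635 to 67382 in krill arrays, a change of 0.15 ± 0.177 (SE, 95% interval -0.22 to 0.52, adjusted p = 0.50). Quantile normalization gave -0.41 and spike-in scaling -0.64, neither past the test. Without the 4 krill arrays the change of 1449394_at was 0.32 ± 0.152 (limma, adjusted p = 0.126). Probe set 1452494_s_at ran from 36992 to 62769 in control arrays; krill replicates 1, 3 and 6 were at 44829 to 58107, and replicates 2, 4, 5 and 7 at 8955 to 14872. Its change was -1.11 ± 0.369 (adjusted p = 0.0287) with all arrays and 0.11 ± 0.198 without those 4 (adjusted p = 0.802).

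The widest difference within Slco1b2 was in probe set 1427826_a_at. It ran from 11476 to 27378 in control arrays, from 10195 to 22135 in krill replicates 1, 3 and 6, and from 508 to 2031 in krill replicates 2, 4, 5 and 7. The change of -2.69 ± 0.627, 6.45-fold lower (adjusted p = 0.00314), became -0.47 ± 0.249 without those 4 arrays (adjusted p = 0.256). The same 4 arrays held between 32922 and 67382 for 1449394_at, so 1 gene was both near its control level and far below it on the same arrays, depending on the probe set. The remaining 2 probe sets were dim: 1427825_at changed by 0.70 ± 0.337 (adjusted p = 0.121) and 1452569_at by -0.50 ± 0.314 (adjusted p = 0.233). Where on the transcript each probe set lies is not used here.

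**Figure D2:**
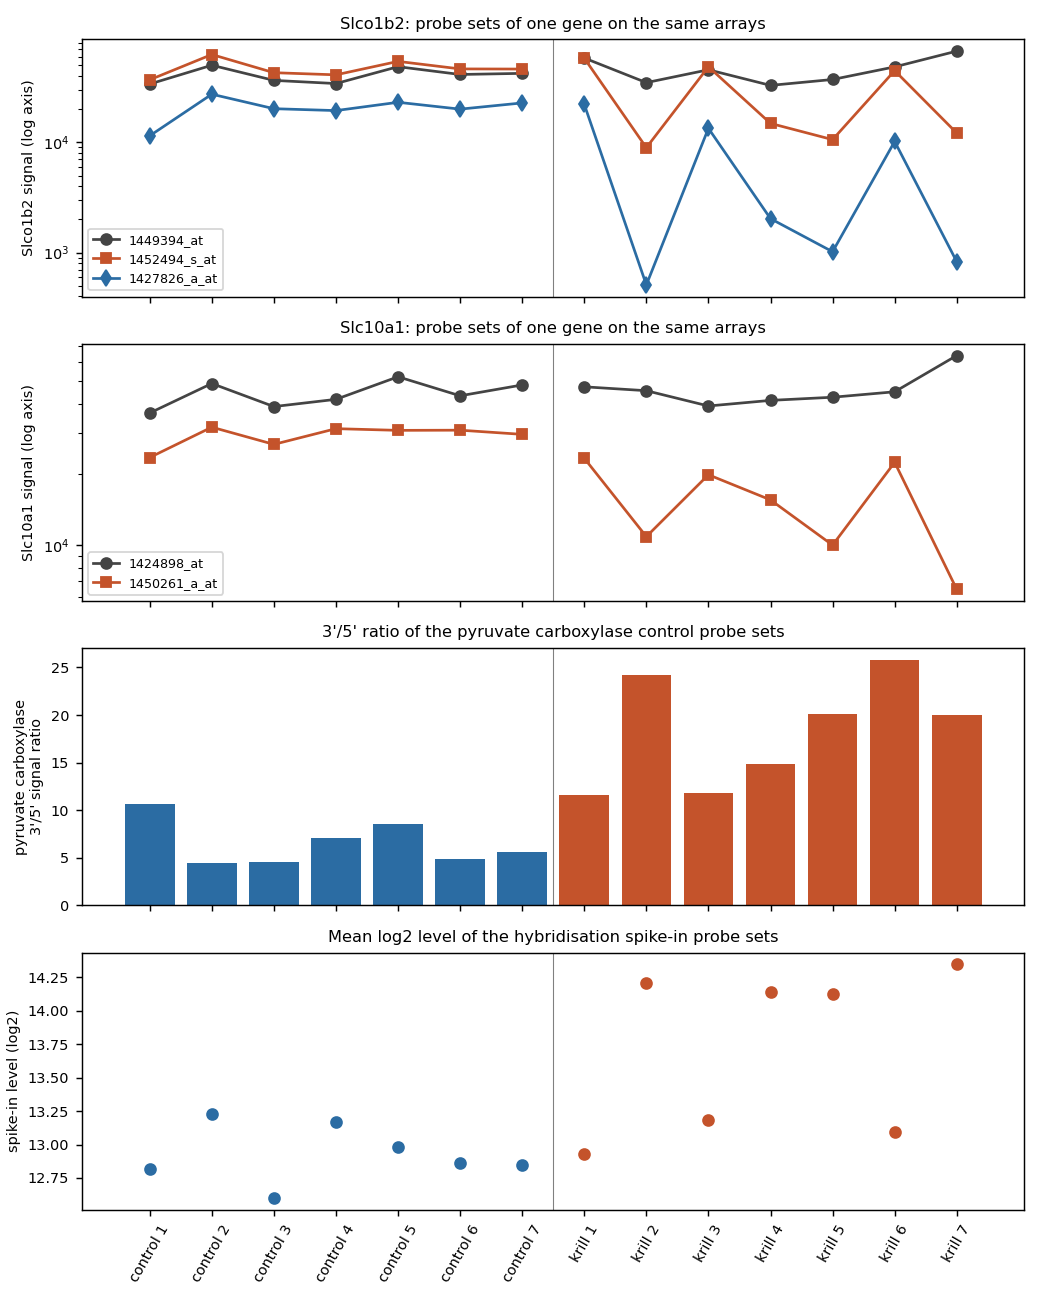
Signal on a log axis of 3 Slco1b2 and 2 Slc10a1 probe sets on each of the 14 arrays, above the pyruvate carboxylase 3'/5' ratio (bars from 0) and the log2 spike-in level of the same arrays. On krill replicates 2, 4, 5 and 7 Slco1b2 probe set 1427826_a_at fell to between 508 and 2031 while 1449394_at stayed at 32922 or more; on krill replicate 6, where 1427826_a_at was at 10195, the pyruvate carboxylase ratio was the highest, at 25.7, and the actin ratio, not drawn, the lowest of the krill arrays, at 2.48.

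Over all 17 probe sets, 9 were called lower and 0 higher with all arrays (limma over 45037 probe sets with no signal filter), against 12.5% of all probe sets called lower and 16% higher. At an unadjusted p under 0.05 in that limma fit 1 probe set, Slco1a1 1420379_at, was higher, and its adjusted p over all probe sets was 0.0605. The 9 lower ones belonged to 7 genes, since Slc10a1 and Slco1b2 joined through the probe sets that do not stand for the gene. Without the 4 krill arrays 4 probe sets were lower, those of Abcb4 and Abcc2 and the brighter pair of Slco2b1, and both Slco1a1 probe sets were higher; over all probe sets 9.12% were lower and 4.57% higher. Every krill array was under every control array in 4 of the 17, those of Abcb4, Abcc2, Slco2b1 (1433933_s_at) and Slc10a1 (1450261_a_at), against 4.1% of all probe sets. Every krill array was over every control array in 0 of the 17, against 2.98% of all. These shares of all probe sets include many dim ones, while 16 of the 17 passed the signal filter. Among genes, the share called lower was 15% with no filter, 24.8% with it and 30.9% in the upper 30% of signal. The share called higher was 20.4%, 22.9% and 23.6%. Shares for probe sets as bright as these were not computed, so 12.5% and 4.1% may be too low a background.

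**Figure D3:**
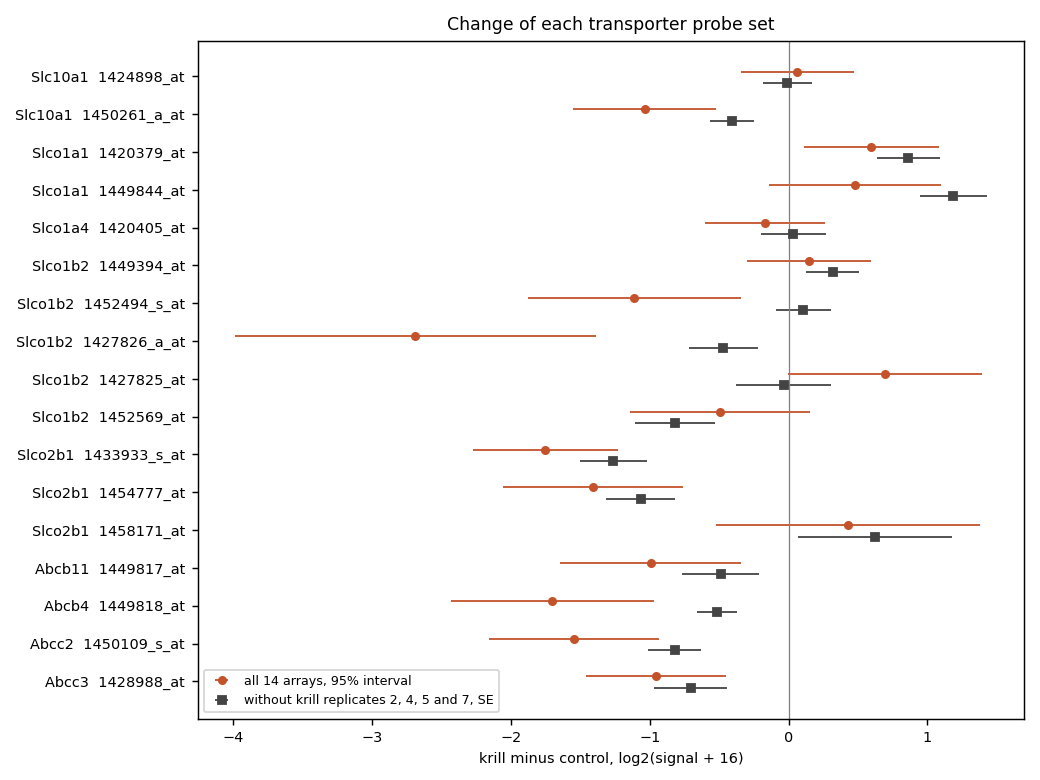
Change of each of the 17 transporter probe sets, krill minus control on the log2(signal + 16) scale; circles show all 14 arrays with the 95% interval and squares the change without krill replicates 2, 4, 5 and 7 with its SE. Slco1b2 probe set 1427826_a_at moved from -2.69 to -0.47 when the 4 arrays were left out, while Slco2b1 1433933_s_at moved from -1.75 to -1.26.

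Array scaling cancels in the difference between transporters on the same array, apart from the pseudocount. For 8 pairs this was tested by exact permutation over 3432 assignments of arrays to diets, two-sided, with adjustment over the 8. The pairs were chosen with earlier results of these data known, and the adjustment does not cover that choice. Such a difference shows unequal change of 2 probe sets, those that stand for the genes, not that either one stayed the same. The widest gap was that of Slco1b2 (1449394_at) minus Slco2b1, uptake carriers of overlapping substrates. On the log2 scale the 7 control arrays had a difference of 3.61 ± 0.597 (SD) and the 7 krill arrays one of 5.51 ± 0.423 (SD), without overlap (exact permutation test, adjusted p = 0.00466, from the smallest p the test can give, 0.000583). The gap between diets was 1.90 with all arrays and 1.58 without the 4 krill arrays (exact permutation test over 120 assignments, adjusted p = 0.0333). It rested on the Slco1b2 probe set: 1452494_s_at gave a gap of 0.64 (exact permutation test, adjusted p = 0.134) and 1427826_a_at turned it to -0.94 (exact permutation test, adjusted p = 0.252).

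Slco1a1 and Slco1a4, neighbouring genes of the Slco1 cluster on chromosome 6 with a pair of long noncoding RNA genes between them, also changed unequally. Slco1a1 gained 0.77 on Slco1a4, and all 7 krill arrays lay above the control mean (exact permutation test, adjusted p = 0.00699). Without the 4 krill arrays the gain was 0.83 (exact permutation test, adjusted p = 0.0833), and with the other Slco1a1 probe set, 1449844_at, it was 0.65 with all arrays (exact permutation test, adjusted p = 0.0917). Slco1a1 gained 0.45 on Slco1b2, a further gene of that cluster (exact permutation test, adjusted p = 0.0494), and 0.54 without the 4 arrays (exact permutation test, adjusted p = 0.0667). That gain was 0.33 with 1449844_at (exact permutation test, adjusted p = 0.425) and 3.28 with Slco1b2 probe set 1427826_a_at (exact permutation test, adjusted p = 0.00233).

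Between uptake and canalicular export of bile salts, Slc10a1 by probe set 1424898_at gained 1.06 on Abcb11 with all arrays (exact permutation test, adjusted p = 0.0389) and 0.48 without the 4 (exact permutation test, adjusted p = 0.387). By the other bright Slc10a1 probe set, 1450261_a_at, the gap was -0.04 (exact permutation test, adjusted p = 0.939). Among the pumps, Abcc3 gained 0.59 on Abcc2 (exact permutation test, adjusted p = 0.0494) and 0.11 without the 4 arrays (exact permutation test, adjusted p = 0.638). Abcb11 against Abcb4 (0.71, exact permutation test, adjusted p = 0.103) and Abcc2 against Abcb11 (-0.55, exact permutation test, adjusted p = 0.0575) did not pass. Slc10a1 against Slco1b2 did not pass with all arrays (-0.08, exact permutation test, adjusted p = 0.448), while without the 4 arrays Slco1b2 gained on Slc10a1 (-0.32, exact permutation test, adjusted p = 0.0333). With all arrays that gap ranged from -1.18 to 2.75 with the other bright probe sets of the pair. The calls of Slco1a1 against Slco1b2 and of Abcc3 against Abcc2 each ended when any of 11 of the 14 single arrays was left out, and that of Slc10a1 against Abcb11 for 6 of 14.

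**Figure D4:**
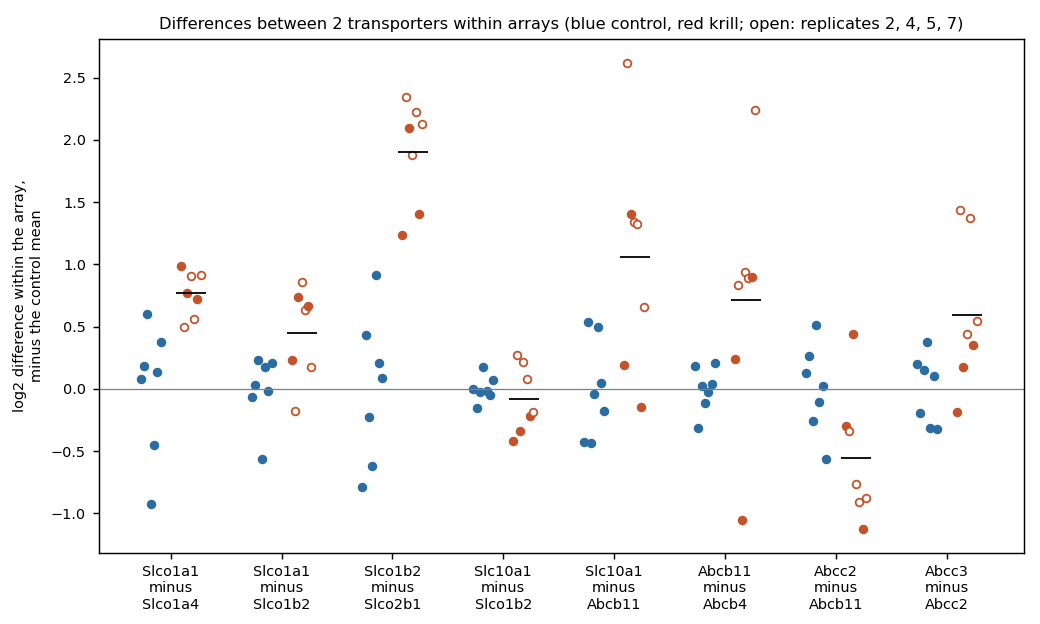
Log2 difference between 2 transporters within each array, with the control mean of the pair set to 0; blue points are the 7 control arrays, red points the 7 krill arrays, open ones krill replicates 2, 4, 5 and 7, and lines the krill means. Each gene is shown by the probe set that stands for it; in the pair Slco1b2 minus Slco2b1 all krill points lie above all control points, with a mean of 1.90, which Slco1b2 probe set 1427826_a_at turned to -0.94.

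Within the diets the transporters, each by the probe set that stands for its gene, did not vary as one group. After the mean of each diet was taken away, the correlation over the 14 arrays was highest between Abcc2 and Slco2b1 (Pearson r = 0.91), followed by Abcb11 with Slco2b1 (0.83) and Abcb4 with Abcc2 (0.81). Slc10a1 went with Slco1b2 (0.77) and was near 0 with Slco2b1 (0.01). The lowest correlation was that of Abcb4 with Slc10a1 (-0.22). Arrays share their scaling and RNA quality, so these values describe the arrays and carry no test. The correlation with the spike-in level was -0.90 for Abcb4, -0.63 for Abcc2, -0.57 for Slco2b1, -0.48 for Abcb11 and -0.26 for Abcc3. It was -0.87 for Slco1b2 1427826_a_at against -0.21 for Slco1b2 1449394_at. For Slc10a1 it was -0.78 by 1450261_a_at against 0.36 by 1424898_at, so how Slc10a1 and Slco1b2 varied depended on the probe set.

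The tested genes whose signal was most like that of each transporter, by the same correlation over 14 arrays, differed from member to member. For Abcb4 they were Saraf (0.99), a regulator of store-operated calcium entry, and Dcaf11 (0.98). Abcc2 was most like Vwa8 (0.97) and Aco1 (0.96), the cytosolic aconitase that also binds iron-responsive RNA elements. Slco2b1 was most like Tfr2 (0.97), the hepatic transferrin receptor of iron sensing, and Gtf3c2 (0.97). Abcb11 was most like Cds2 (0.95), an enzyme of phospholipid synthesis, and Cldn12 (0.95), a claudin. Abcc3 went with Oplah (0.92) and Lima1 (0.91), Slco1b2 with Hook1 (0.94) and Cyb5r4 (0.93), and Slco1a1 with Uso1 (0.91) and Spcs3 (0.91), proteins of the secretory pathway. Slc10a1 went with Fmr1 and Dek (both 0.90), and Slco1a4 had the weakest likeness, to Ugt2a3 (0.84) and Bche (0.82).

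Other carriers of the hepatocyte membrane were mostly lower or not past the test. Of 11 tested genes on this list 6 were lower and 0 higher by limma, also at an unadjusted p under 0.05, with a median of -0.72, against 24.8% of all tested genes lower and 22.9% higher. When the 4 krill arrays were left out, 4 were lower and 0 higher, with a median of -0.53, against 19.6% and 12.7% of all genes. Abcg5 and Abcg8, which pair to form the canalicular sterol exporter, changed by -1.04 ± 0.204 (adjusted p = 0.000590) and -1.69 ± 0.202 (adjusted p = 2.1e-05), each without overlap of the diets. Abcc6, a basolateral pump that mediates ATP release, changed by -2.20 ± 0.241 (adjusted p = 1.34e-05), and Slc47a1, the canalicular cation exporter MATE1, by -1.33 ± 0.262 (adjusted p = 0.000606). These 4 were also the ones called lower without the 4 krill arrays, at -0.63, -1.45, -2.14 and -0.53 in the order named. The other 2 were Slc22a7, an organic anion carrier, at -0.72 ± 0.236 and Abcg2, the breast cancer resistance protein, at -0.81 ± 0.304, which became -0.23 and 0.09 without those arrays. Atp8b1, the canalicular aminophospholipid flippase, was at -0.02 ± 0.197 (adjusted p = 0.942). Abcc4, Slc51a and Slc51b, which export bile acids to the blood, did not pass the signal filter.

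Genes of bile acid synthesis moved both ways: 8 of 15 were lower, 3 higher and 4 did not pass, with a median of -0.57, against 24.8% of all tested genes lower and 22.9% higher. The balance turned round without the 4 krill arrays, with 2 lower, 4 higher and a median of -0.04, against 19.6% and 12.7% of all genes. Cyp7a1, the rate-limiting enzyme of the classical pathway, was at 0.53 ± 0.278 with all arrays (adjusted p = 0.118) and at 1.00 ± 0.290 without the 4 krill arrays (adjusted p = 0.0168). Cyp27a1, which starts the acidic pathway, was lower by both fits, at -1.26 ± 0.242 (adjusted p = 0.000475) and -0.70 ± 0.172 (adjusted p = 0.00710). Cyp8b1, the sterol 12-alpha-hydroxylase that sets the share of cholic acid, fell by 1.19 (adjusted p = 0.00186), and without the 4 arrays it was at -0.46 (adjusted p = 0.0607). Acox2, the oxidase that shortens the side chain, was at -1.17 ± 0.326 (adjusted p = 0.00724) and at -0.27 without those arrays (adjusted p = 0.230). Baat, which conjugates bile acids with taurine, was higher, at 0.64 ± 0.141 (adjusted p = 0.00133), with all krill arrays above all control arrays, and Hsd3b7 at 0.40 ± 0.132 (adjusted p = 0.0182); both were also called without the 4 arrays. Scp2, a sterol carrier and thiolase, was at 0.66 ± 0.185 (adjusted p = 0.00723) and at 0.23 without them (adjusted p = 0.230).

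Of 13 tested regulators 5 were lower, 2 higher and 6 did not pass, with a median of -0.44, against 24.8% of all tested genes lower and 22.9% higher. Leaving out the 4 krill arrays gave 4 lower and 1 higher, with a median of -0.27, against 19.6% and 12.7% of all genes. Rxra, the shared partner of the nuclear receptors that control these carriers, changed by -1.82 ± 0.233 (adjusted p = 2.9e-05), Ppara, a fatty acid receptor known to regulate Abcb4 in the mouse, by -1.93 ± 0.282 (adjusted p = 5.47e-05), and Fgfr4, the receptor for the intestinal hormone that represses Cyp7a1, by -1.59 ± 0.271 (adjusted p = 0.000183). All 3 were also called lower without the 4 krill arrays. Nr0b2, the repressor SHP that is induced by the bile acid receptor FXR, was at -1.84 ± 0.474 (adjusted p = 0.00431) and at -0.78 ± 0.461 without them (adjusted p = 0.214). Nr5a2, an activator of Cyp7a1 and Cyp8b1, was at -0.78 ± 0.260 (adjusted p = 0.0205) and at -0.27 without them (adjusted p = 0.428). Nr1h4, which encodes FXR and controls Abcb11, was at 0.40 ± 0.137 (adjusted p = 0.0230) and at 0.23 without them (adjusted p = 0.211). Nr1h3, the oxysterol receptor LXR alpha, was higher by both fits, at 0.64 ± 0.181 (adjusted p = 0.00782) and 0.73 ± 0.147 (adjusted p = 0.00237). With all arrays Nr1i2 (-0.35), Nr1i3 (0.23), Hnf4a (-0.56) and Nfe2l2 (-0.44) did not pass, and without the 4 krill arrays Nfe2l2, the regulator of antioxidant genes and of Abcc3, was called lower at -0.83 ± 0.189 (adjusted p = 0.00479).

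For a list drawn up for anchoring or delivery of proteins at the apical membrane the share called was near that of all genes. Whether each listed gene does this in hepatocytes was not tested. Of 10 tested genes 2 were lower, 2 higher and 6 did not pass, with a median of 0.01, against 24.8% of all tested genes lower and 22.9% higher. With the 4 krill arrays left out 2 were lower and 1 higher, with a median of -0.31, against 19.6% and 12.7% of all genes. The lower ones were Slc9a3r1, a scaffold of apical carriers, at -0.83 ± 0.190 (adjusted p = 0.00188), and Vps33b, needed for apical delivery, at -1.13 ± 0.354 (adjusted p = 0.0148). Both kept their sign without the 4 krill arrays, at -0.42 (adjusted p = 0.0482) and -0.87 (adjusted p = 0.0925). The higher ones were Pdzk1, a scaffold protein, at 0.44 ± 0.136 (adjusted p = 0.0137) and Msn, moesin, at 0.54 ± 0.192 (adjusted p = 0.0273). Without those arrays they were at 0.51 (adjusted p = 0.0136) and 0.16 (adjusted p = 0.50). Rdx, radixin, which anchors the product of Abcc2, was at -0.43 ± 0.240 (adjusted p = 0.145) with all arrays and was called lower at -0.59 ± 0.154 without the 4 krill arrays (adjusted p = 0.00939). Ezr, ezrin, was at 0.49 ± 0.230 (adjusted p = 0.0841).

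**Figure D5:**
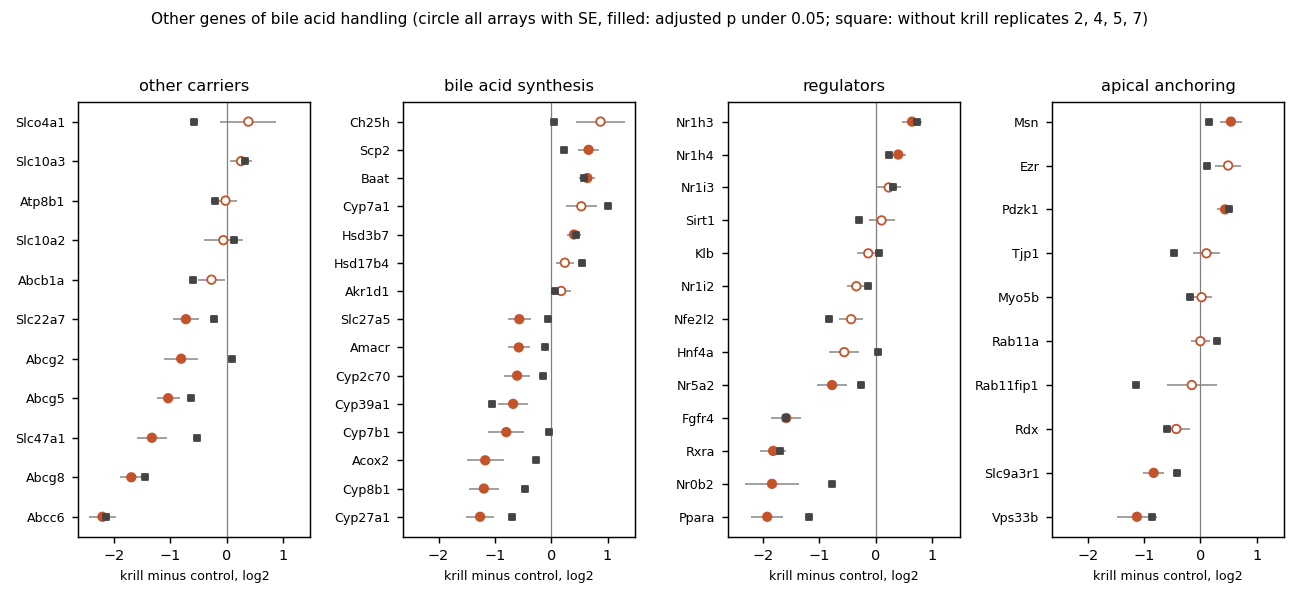
Change of the tested genes of the 4 other lists of bile acid handling, krill minus control on the log2(signal + 16) scale; circles show all 14 arrays with the SE, filled where the adjusted p was under 0.05, and squares the change without krill replicates 2, 4, 5 and 7. Abcc6, Abcg8, Rxra and Fgfr4 lie near -1.5 or lower in both, whereas Abcg2 moved from -0.81 to 0.09.

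Markers of liver cell types were measured on the same arrays. Of 8 hepatocyte markers 6 were on the array, and their summed signal was 213200 to 312100 in control and 273300 to 572900 in krill arrays. Such a sum is led by the brightest markers. Of the 6 tested, 3 were called higher and 2 lower, against 22.9% and 24.8% of all tested genes. Mean signal went from 85530 in control to 150600 in krill arrays for Apoa1, but from 10310 to 3640 for Tat and from 417.5 to 210.1 for Ass1. The summed signal of 5 cholangiocyte markers, from the cells that line bile ducts, was 274 to 443 in control and 231 to 748 in krill arrays, with Cftr near the floor at a mean of 36.1. The 6 Kupffer cell markers summed to 4909 to 6958 and 6778 to 13430, the 6 sinusoidal endothelial markers to 8076 to 9326 and 4416 to 12970, and the 6 stellate cell and fibroblast markers to 12300 to 17380 and 11620 to 16420. Of 5 tested Kupffer cell markers 2 were called higher and 2 lower. The mean of Cd5l went from 2025 in control to 4793 in krill arrays and that of Vsig4 from 1466 to 858. Lymphocyte markers summed to 279 to 526 and 384 to 1108, erythroid markers to 3269 to 3985 and 2023 to 8151, and kidney tubule markers to 351 to 672 and 622 to 1939. The 3 pancreatic acinar markers on the array summed to 2668 to 5136 in control and 6181 to 19300 in krill arrays, without overlap, carried by Cela1, while Cpa1 was near the floor at a mean of 14.1. These sums are over all arrays of a diet. Without krill replicates 2, 4, 5 and 7 the krill sums were 273300 to 345300 for hepatocyte and 231 to 365 for cholangiocyte markers. They were 6844 to 9219 for Kupffer cell, 8845 to 11420 for sinusoidal endothelial and 11620 to 16420 for stellate cell and fibroblast markers. Erythroid markers were then at 4081 to 8151, above the control range. Lymphocyte markers were at 384 to 586, kidney tubule markers at 622 to 1360 and pancreatic markers at 6181 to 9286. The part of other cell types in the transporter differences was not tested.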

How the data were processed

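Biotin-labelled cRNA from total liver RNA was hybridised to arrays, per the labels' protocols. The deposited values are linear signal intensity per probe set, made with MAS5, per the submitters' processing notes, which state no version. Per the deposited intensity values every array has about the same trimmed mean, so an array of dim RNA is scaled up as a whole, background included. No detection calls were used. Gene symbols came from GEO's platform annotation, in which 34945 probe sets have 1 symbol, 932 several and 9160 none listed; the gene IDs of all 9 transporters were found in the GRCm38.p6 gene table.

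Signal was transformed as log2(signal + 16), which understates folds of dim genes. The upper 50% of probe sets by mean signal, 22518, were kept, and the brightest stood for its gene, giving 11308 genes, with all 9 transporters and 16 of their 17 probe sets kept. The fit of diet used limma 3.58.1 under R 4.3.3 (trend, no covariate, Benjamini-Hochberg, 0.05), once over genes and once over all 45037 probe sets; adjusted p of a probe set that does not stand for its gene is from the latter. The procedure was tested on simulated data. Pairs were tested by exact permutation. Python 3.11.15, numpy 2.4.6, pandas 2.3.3 and matplotlib 3.10.9 were used elsewhere.

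The transporters, lists, pairs and alternatives were chosen with earlier results of these data known. Named genes are all members, at most 6 of smallest p per list, a set panel, and the 2 genes most like each member. Motifs were chosen after values were seen. Alternatives covered pseudocount, scaling, filter, choice of probe set, trend, array weights, replicate block, quality covariates and left-out arrays; for pairs, other probe sets were added after the data were seen. One panel gene and 1 motif are not reported here.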

Additional observations from a re-analysis of the deposited data

Results flagged for a closer look

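In 34 groups of 7 signals, those of the 17 transporter probe sets in each diet, the highest or lowest array was checked for a gap to its nearest neighbour wide for the group's range (Dixon's 95% limit for 7 arrays). This held in 4 groups, and chance alone is expected in about 1 of 20. For Slc10a1 (1424898_at) krill replicate 7 was high at 64026, with the next array at 47126. For Slco1a1 (1420379_at) krill replicate 2 was low at 13387, with the next at 25151. For Slco2b1 (1454777_at) krill replicate 2 was low at 151, with the next at 557. For Slco1b2 (1427826_a_at) control replicate 1 was low at 11476, with the next at 19439; among the control arrays it had the highest pyruvate carboxylase 3'/5' ratio, 10.7. Krill replicates 2 and 7 are both among the arrays of high spike-in level, and krill replicate 7 had the highest spike-in level (14.35), the highest actin 3'/5' ratio (3.79) and the highest Gapdh 3'/5' ratio (1.69) of the 14 arrays.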

How the results depend on the processing

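Leaving out any single array kept 5 transporters called lower, so their range was 5 to 5, and the count called higher ranged from 0 to 1: Slco1a1 lost its call without control replicates 1, 3, 4 or 6 or krill replicates 3, 4, 6 or 7, its change staying between 0.46 and 0.76. That count was also 0 with quantile normalization, centring on array medians, scaling on spike-ins, no signal filter, probe sets of a gene averaged, no trend, and the 3'/5' index as a covariate (limma; at an unadjusted p under 0.05 it was 1 with no filter, with the mean of probe sets and with no trend, and 0 with the others). With the spike-in level as a covariate 1 gene and 1 probe set were lower and 1 probe set higher, and with the 3'/5' index 0 genes and 0 probe sets were lower, where 0% of all genes passed as well and 1 transporter, Slco2b1, had an unadjusted p under 0.05; that index does not overlap between the diets, from 1.56 to 2.28 in control and 2.44 to 3.12 in krill arrays. Without krill replicates 2, 4, 5 and 7, 3 genes and 4 probe sets were lower and 2 probe sets higher. Slc10a1 reversed to -0.55 with quantile normalization, -0.72 with spike-in scaling and -0.49 with the mean of its probe sets, Slco1a1 to -0.19 with spike-in scaling and Slco1b2 to -0.69 with the mean of its probe sets. The all-gene median was -0.36 after centring, -0.75 after spike-in scaling and 0.32 without the filter.

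Without those 4 krill arrays the pairs Slco1a1 minus Slco1a4 (0.83), Slco1a1 minus Slco1b2 (0.54), Slc10a1 minus Abcb11 (0.48) and Abcc3 minus Abcc2 (0.11) lost their calls and Slc10a1 minus Slco1b2 (-0.32) gained one; with 120 assignments the smallest p is 0.00833. A pseudocount of 64 ended the calls of Slco1a1 minus Slco1b2 (0.45) and Abcc3 minus Abcc2 (0.56). With 1 array left out, Slco1a1 minus Slco1b2 ranged from 0.35 to 0.55 and lost its call except without control replicate 7 or krill replicates 1 or 2. Abcc3 minus Abcc2 ranged from 0.45 to 0.72 and lost it except without control replicate 4 or krill replicates 1 or 3. Slc10a1 minus Abcb11 ranged from 0.80 to 1.26 and lost it without control replicates 1, 3 or 6 or krill replicates 2, 4 or 5. Abcb11 minus Abcb4 (0.46 to 1.01) gained a call without krill replicate 3, and Abcc2 minus Abcb11 (-0.72 to -0.46) without control replicate 7 or krill replicate 3. Of 11 pair gaps recomputed with another bright probe set of a member, an alternative chosen after the data were seen, Slco1b2 minus Slco2b1 turned to -0.94 with 1427826_a_at and lost its call with 1452494_s_at (0.64), Slc10a1 minus Abcb11 turned to -0.04 and Slc10a1 minus Slco1b2 became -1.18 with Slc10a1 1450261_a_at, and the latter turned to 2.75 with Slco1b2 1427826_a_at. Slco1a1 1449844_at ended the calls against Slco1a4 (0.65) and Slco1b2 (0.33), and 4 gaps kept their direction and side of the threshold or stayed uncalled. The causes were not tested. With the replicate number as a replicate block 5 genes were lower and 1 higher, as without it. Same-numbered arrays correlated by -0.02 to 0.10. For 1 of 7 control arrays the best-matching krill array had the same number, so the numbers were not taken as pairs.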
